A study of Homo sapiens with 12 samples.

Results

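The nuclear-encoded subunits of the respiratory chain and of the ATP synthase were followed at the RNA level in myeloma cells over 5 days of NGI-1. Rows of the deposited table were taken by symbol: NDUFA, NDUFB, NDUFC, NDUFS and NDUFV genes with NDUFAB1 for complex I, SDHA to SDHD for complex II, UQCR genes and CYC1 for complex III, 10 COX genes for complex IV and ATP5 genes for complex V. Symbols with a hyphen or ending in P and digits were left out. This gave 82 genes of 59276 features, with 39 in complex I, 4 in complex II, 10 in complex III, 10 in complex IV and 19 in complex V. The cells were MM1S, an established line of multiple myeloma, a malignancy of antibody-secreting plasma cells. NGI-1 is a small molecule inhibitor of the oligosaccharyltransferase (OST) complex, the enzyme that places N-linked glycans on proteins in the endoplasmic reticulum. Total RNA was sequenced from 3 libraries labelled day 0, taken as untreated, and from 3 libraries of each time in the drug, 2, 3 or 5 days at 10 μM. The day 0 libraries carry the NGI-1 label as well, but the study describes them as cells without drug and they are treated so here. No untreated library of a later day was analysed here, so time in culture and time in the drug cannot be told apart, and the labels do not say whether the 3 libraries of a group came from separate cultures.

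Oxidative phosphorylation runs in the inner mitochondrial membrane. Complex I takes electrons from NADH and complex II takes them from succinate. Ubiquinone carries them to complex III and cytochrome c carries them on to complex IV, where oxygen is reduced. Complexes I, III and IV pump protons, and complex V, the ATP synthase, makes ATP as protons flow back. Complex II is wholly nuclear-encoded. The others mix nuclear subunits with a few encoded by mitochondrial DNA, and their assembly joins the products of both genomes. Plasma cells and myeloma cells secrete large amounts of protein and draw on this chain for ATP.

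The values were TPM, a share of all transcripts corrected for length, deposited as log2(TPM+1). A TPM is relative to everything else in its library, and the counting error behind it is unknown because no read counts were given. In bulk RNA, fewer cells with a transcript and less of it per cell cannot be told apart. A member was called when limma's Benjamini-Hochberg adjusted p was under 0.05, over the 11939 features that reached a TPM of 1 in 3 or more libraries, and its log2 fold change exceeded 0.5 in size. Composition moved strongly over the series. Ribosomal protein and mitochondrially encoded features together held 38.4% to 38.9% of the TPM in untreated libraries and 61.0% to 63.8% at day 5. Over all tested features the log2 fold change had a median of -0.18, -0.73 and -0.99 at day 2, day 3 and day 5, and this shift is the reference for each value below. Values are therefore also given after rescaling, in which every library was divided by its own factor, chosen to bring the median log2 ratio to the average library to 0. After rescaling the medians of all features were 0.01, -0.03 and -0.02. Ratios between members inside a library do not depend on this choice. Libraries H8 (day 3) and H12 (day 5) lay toward earlier times in many members. Of 8 plasma cell markers all were tested, with summed TPM of 3265 to 3449 in untreated libraries and 3002 to 3337 at day 5. At day 5, 5 were lower and 1 was higher, or 2 and 3 after rescaling, from XBP1, a transcription factor of secretory cells (log2 fold change -2.09, rescaled -0.87), to TNFRSF17, the receptor BCMA (1.85, rescaled 3.08). Of 21 markers of other cell types, CD3E alone passed the filter, at 3.00 TPM in untreated cells and 4.01 at day 5. The summed TPM of the T cell markers lay between 2.75 and 7.22, with CD3D at 0 in all libraries, and that of the myeloid, erythroid, stromal and endothelial, and epithelial lists stayed at or under 1.14. The part of composition or of other cells in the changes below was not tested.

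The members did not move as a block. At day 5 NDUFS1, SDHB, UQCRC1 and ATP5F1B, which form the redox, structural and catalytic centres of their complexes, were 4.45-, 3.77-, 4.35- and 4.09-fold lower, while small subunits such as NDUFS4, UQCRB, COX7C and ATP5F1E were 2.16-, 2.44-, 2.44- and 2.00-fold higher on the log2(TPM+1) scale. After rescaling the log2 fold changes of the first 4 were -0.96, -0.70, -0.92 and -0.81, and those of the last 4 were 2.33, 2.51, 2.51 and 2.22. On the deposited scale 50 of 80 tested members were lower at day 5 and 12 were higher, beside 69.8% lower and 7.73% higher among all tested features. Their median log2 fold change was -1.05 against -0.99 for all features, while single members ranged from -2.35 to 1.29. After rescaling 19 members were lower and 32 higher at day 5, with a median of 0.17, beside 26.9% lower and 27.5% higher among all features. All 19, and all 12 of the members higher on the deposited scale, had the same call in 3 scalings, of which this rescaling is 1. All 3 raised the day 5 values, with all-feature medians of -0.02, -0.48 and -0.79 in place of -0.99. The agreement was thus largely set by construction and adds no support to these calls. Among the 19 were ATP5F1A, ATP5F1B, ATP5MC1, ATP5MC3, ATP5MF, COX8A, CYC1, NDUFA9, NDUFB10, NDUFS1, NDUFV1, SDHB and UQCRC1. The 12 were NDUFA4, NDUFA5, NDUFS4, UQCR11, UQCRB, COX7A2, COX7C, ATP5F1E, ATP5IF1, ATP5MD, ATP5ME and ATP5MPL. With each library left out in turn, all 50 lower calls and 11 of the 12 higher calls at day 5 were made again, and without H8 and H12 together 51 members were lower and 12 higher. The call lost was that of ATP5MD, without library H1. Another 3 members, ATP5PF, NDUFB4 and UQCRH, were called lower on the deposited scale and higher after rescaling.

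**Figure D1:**
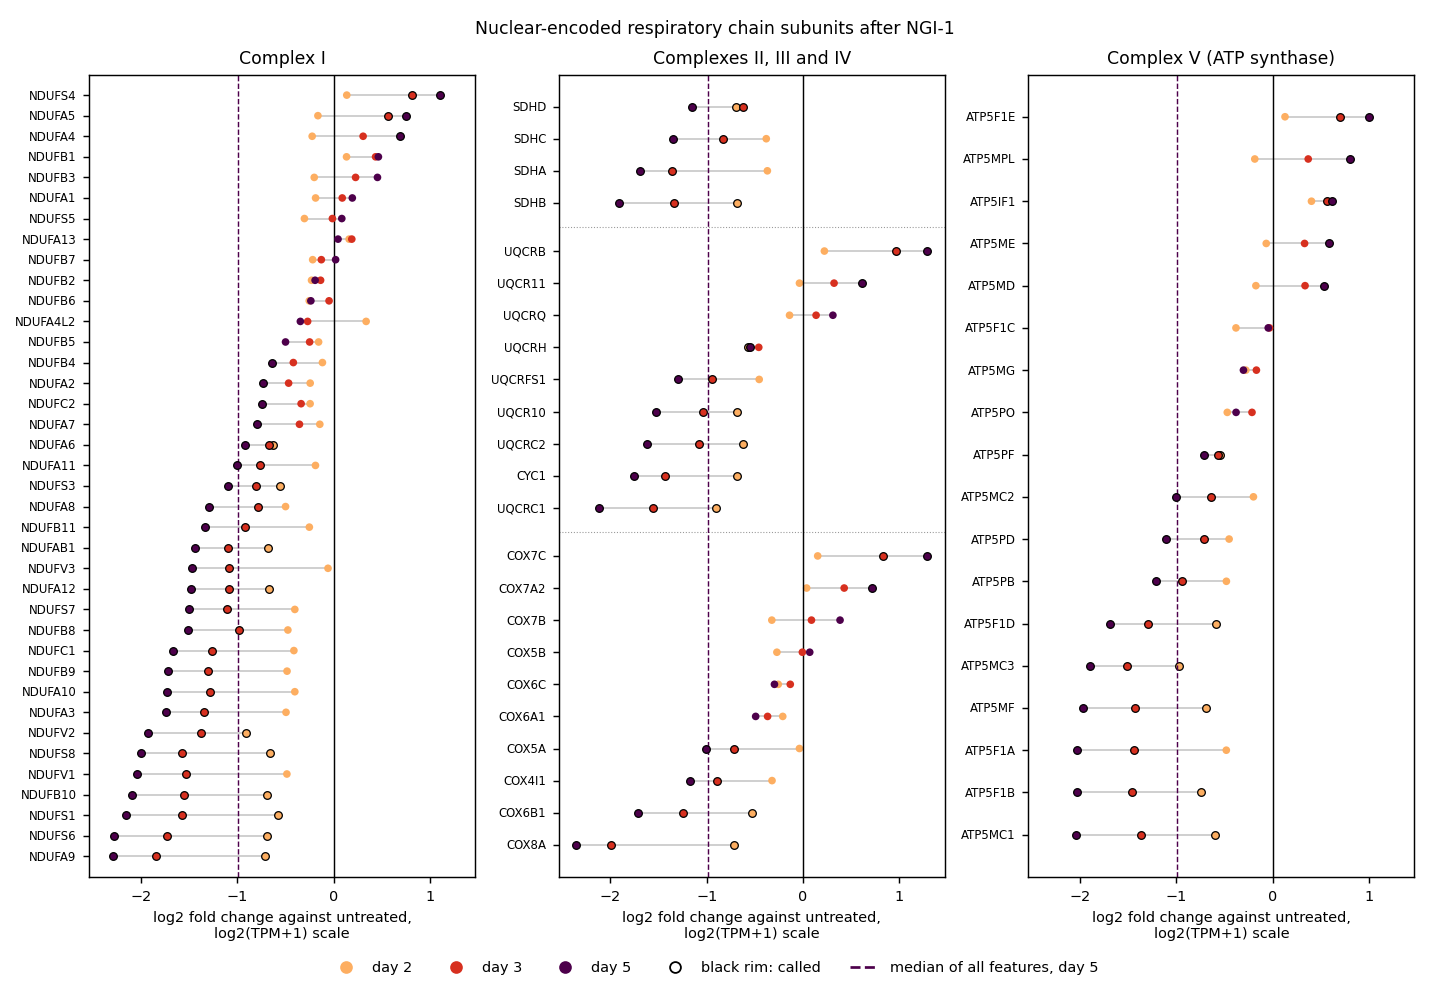
Log2 fold change against untreated libraries (horizontal axis, log2(TPM+1) scale) of the tested members in rows (1 is not shown), by complex, at day 2 (orange), day 3 (red) and day 5 (dark purple), with a black rim where the change was called and the dashed line at the median of all features at day 5 (-0.99). Points spread with time from -0.97 to 0.40 at day 2 to -2.35 to 1.29 at day 5, and in complexes I, III, IV and V they end on both sides of 0.

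At day 2 on the deposited scale some members had fallen and none had risen past the threshold. There were 25 members lower and 0 higher of 80 by limma's test, beside 23.2% lower and 8.04% higher among all features, and the median was -0.38 against -0.18 for all features. With no minimum fold, 55 were lower and 1 was higher at day 2, beside 3942 and 1449 of all 11939 features. The largest fall was in ATP5MC3, at -0.97, and the highest value was in ATP5IF1, at 0.40, which did not pass the fold threshold. After rescaling 4 members were lower at day 2, namely NDUFV2 (-0.67), UQCRC1 (-0.67), ATP5F1B (-0.51) and ATP5MC3 (-0.74), and ATP5IF1 was higher (0.63), beside 11.4% lower and 12.9% higher among all features. These 5 were named after their values were seen. At day 3 there were 45 members lower and 6 higher, beside 61.5% lower and 7.59% higher among all features, with a median of -0.71 against -0.73. The 6 were NDUFA5, NDUFS4, UQCRB, COX7C, ATP5F1E and ATP5IF1. After rescaling 15 were lower and 30 higher at day 3, beside 24.2% and 23.9% of all features.

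Complex I has a core of 7 nuclear-encoded subunits that carry the flavin and the iron-sulfur clusters, and accessory subunits around it. All 7 core members were lower at day 3 and at day 5, beside 61.5% and 69.8% of all features, with a median log2 fold change of -2.001 at day 5. After rescaling 5 of the 7 remained lower at day 5, beside 26.9% of all features, with a median of -0.80. Among the 5 were NDUFS1 and NDUFV1, while NDUFS3 turned to 0.12 without a call. NDUFV1, which binds NADH and the flavin at the entry of the complex, measured 145, 136 and 141 TPM in the untreated libraries, 98.8, 108 and 94.9 after 2 days, 47.04, 56.8 and 41.2 after 3 days and 29.1, 31.1 and 41.6 after 5 days. All treated libraries lay below the untreated ones, and the highest day 5 library, H12, reached into the range of day 3. NDUFS1, the largest iron-sulfur subunit, measured 79.8, 85.0 and 79.1 TPM in the untreated libraries, 52.9, 57.1 and 53.05 after 2 days, 26.8, 27.5 and 25.5 after 3 days and 16.9, 16.4 and 19.2 after 5 days. Each group lay below the one before it, and the fold change at day 5 was -2.15 (standard error 0.09, adjusted p = 6.61e-11 from limma, rescaled -0.96). NDUFV2, the partner of NDUFV1, had the largest fall of the core at day 2, at -0.90 (rescaled -0.67). NDUFS3 fell least, by 1.09 at day 5.

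Of the 32 accessory subunits of complex I, 19 were lower at day 5, 3 were higher and 10 were not called, the median being -0.77, beside 69.8% lower and 7.73% higher among all features. After rescaling 5 were lower and 13 higher, the median then being 0.39, beside 26.9% and 27.5% of all features. NDUFA9, a subunit next to the ubiquinone site, had the largest fall of the complex and measured 137, 144 and 143 TPM in the untreated libraries, 89.2, 81.9 and 86.0 after 2 days, 36.1, 46.1 and 34.9 after 3 days and 24.6, 25.4 and 35.6 after 5 days. Untreated, day 2 and later libraries did not overlap, the highest day 5 library (H12) lay within the day 3 range, and the fold change at day 5 was -2.29 (standard error 0.13, adjusted p = 2.28e-09 from limma, rescaled -1.08). NDUFS6 (-2.28, rescaled -1.06) and NDUFB10 (-2.09, rescaled -0.88) followed it among the accessory subunits. NDUFS4, a small subunit close to the NADH-binding end, went the other way and measured 98.3, 97.2 and 102 TPM in the untreated libraries, 114, 100.2 and 113 after 2 days, 183, 156 and 188 after 3 days and 221, 209.8 and 214 after 5 days. The untreated and day 2 libraries overlapped in range and all day 3 and day 5 libraries lay above them, with a fold change at day 5 of 1.11 (standard error 0.08, adjusted p = 2.86e-08 from limma, rescaled 2.33). NDUFA5 rose to 220.0 TPM at day 5 from 130.02 (0.75, rescaled 1.97). NDUFA4 bears a complex I name and is now counted as a subunit of complex IV. By their symbols it and its relative NDUFA4L2 stay among the complex I accessory subunits in all counts, sums and ratios here. NDUFA4 measured 80.02, 77.4 and 82.5 TPM in the untreated libraries, 69.9, 67.1 and 68.2 after 2 days, 102, 89.0 and 107 after 3 days and 131, 127 and 132 after 5 days, with a fold change at day 5 of 0.69 (rescaled 1.90). Its day 2 libraries were the lowest of the 12 and its day 5 libraries the highest. NDUFA4L2, the relative of NDUFA4 known as a hypoxia-induced gene, was scarce, with 1.56, 1.39 and 1.96 TPM in the untreated libraries, 2.00, 3.21 and 1.91 after 2 days, 0.996, 1.30 and 1.27 after 3 days and 0.977, 1.08 and 1.16 after 5 days. It was not called against untreated at any day, at -0.34 at day 5 (rescaled 0.36). With a pseudocount of 0.1 in place of 1 it was called lower at day 5 (-0.56), and likewise with no fold minimum. Several abundant small subunits kept nearly the same TPM, such as NDUFA13 (529 and 545), NDUFS5 (895 and 949.9) and NDUFB7 (177 and 179 in untreated and day 5 libraries), and these 3 were higher after rescaling (1.27, 1.31 and 1.24). NDUFAB1, which is also the acyl carrier protein of mitochondrial fatty acid synthesis, fell by 1.43 at day 5 and lay at -0.21 after rescaling.

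All 4 subunits of complex II were lower at day 3 and at day 5, beside 61.5% and 69.8% of all features. After rescaling SDHB alone was lower at day 5 and none was higher, beside 26.9% and 27.5% of all features. SDHA, the flavoprotein that oxidizes succinate, measured 111, 108 and 108 TPM in the untreated libraries, 80.3, 92.2 and 80.3 after 2 days, 37.6, 50.1 and 38.5 after 3 days and 27.3, 30.7 and 42.7 after 5 days. Library H12 stood above the other day 5 libraries and inside the day 3 range, and the fold change at day 5 was -1.70 (standard error 0.15), or -0.49 after rescaling, just short of the threshold. SDHB, the iron-sulfur subunit, measured 176, 167 and 168 TPM in the untreated libraries, 105, 108 and 105 after 2 days, 68.3, 72.1 and 60.7 after 3 days and 43.3, 45.8 and 44.5 after 5 days. Its replicates lay close together and its fold change at day 5 was -1.91 (standard error 0.08, adjusted p = 7.18e-11 from limma, rescaled -0.70). The membrane anchors fell less. SDHC was at -1.35 and SDHD at -1.16 at day 5, and after rescaling they lay at -0.13 and 0.06, so that SDHD changed sign.

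In complex III the redox subunits and core proteins were lower at day 5 on the deposited scale, while the small subunits went both ways. Of 9 tested members 6 were lower and 2 higher at day 5, beside 69.8% and 7.73% of all features. After rescaling 2 were lower and 4 higher, beside 26.9% and 27.5% of all features. The redox subunit CYC1, cytochrome c1, measured 133, 118 and 150.3 TPM in the untreated libraries, 78.7, 87.3 and 81.1 after 2 days, 49.3, 52.4 and 44.9 after 3 days and 36.0, 41.4 and 38.6 after 5 days. UQCRFS1, the Rieske iron-sulfur protein, measured 43.4, 51.6 and 58.9 TPM in the untreated libraries, 37.5, 37.5 and 35.6 after 2 days, 27.3, 26.4 and 24.2 after 3 days and 20.8, 20.9 and 18.6 after 5 days. Both fell in order, to -1.76 and -1.30 at day 5, and after rescaling CYC1 was still lower (-0.55) while UQCRFS1 lay at -0.11. A processed copy of UQCRFS1 outside the rule, UQCRFS1P1, held 8.23% of its mean TPM over all libraries. UQCRC1, a core protein without a redox group, had the largest fall of the complex and measured 111, 122 and 114 TPM in the untreated libraries, 60.9, 72.0 and 52.6 after 2 days, 36.9, 38.5 and 40.9 after 3 days and 23.0, 25.9 and 28.9 after 5 days. UQCRB, which helps to form the ubiquinone site, had the largest rise and measured 638, 722 and 704 TPM in the untreated libraries, 857, 717 and 836 after 2 days, 1416, 1196 and 1409.8 after 3 days and 1642, 1579 and 1827 after 5 days. All 6 libraries of day 3 and day 5 lay above all 6 earlier ones, with a fold change at day 5 of 1.29 (standard error 0.09, adjusted p = 1.42e-08 from limma, rescaled 2.51). UQCR11 also rose (0.62, rescaled 1.84), UQCRQ was at 0.31 without a call and was higher after rescaling (1.53), and UQCR10 fell (-1.53, rescaled -0.31). UQCRH, the hinge protein, was the second most abundant member in untreated cells, with 1281, 1380.1 and 1397 TPM against 959, 931 and 872 at day 5, a fold change of -0.56 that became 0.67 after rescaling. Its intronless relative UQCRHL lay at 0.17 to 0.55 TPM in all libraries, under the filter. The coding sequences of the pair were identical at 269 of 273 bases, with a shared run of 157 bases, so reads of the pair could be exchanged.

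In complex IV, 4 of 10 nuclear members were lower at day 5, 2 were higher and 4 were not called, beside 69.8% lower and 7.73% higher among all features. After rescaling 1 was lower and 6 were higher, beside 26.9% and 27.5% of all features. COX4I1, the largest nuclear subunit, measured 425, 392 and 408 TPM in the untreated libraries, 312, 342 and 326 after 2 days, 208, 241 and 211 after 3 days and 159, 189 and 196 after 5 days. COX5A measured 462, 549 and 564 TPM in the untreated libraries, 494, 537 and 498 after 2 days, 319.6, 339 and 296 after 3 days and 248, 261 and 271 after 5 days. COX5B, the zinc-binding subunit, measured 302, 283 and 329.8 TPM in the untreated libraries, 260.4, 248 and 248 after 2 days, 284, 291 and 337 after 3 days and 341, 321 and 298 after 5 days. COX4I1 and COX5A fell, by 1.18 and 1.01 at day 5, and turned to 0.05 and 0.22 after rescaling without a call. COX5B was at 0.07 and was higher after rescaling (1.29). COX8A, a single-helix membrane subunit, had the lowest value of all members and measured 756, 615 and 756 TPM in the untreated libraries, 435, 471 and 389.6 after 2 days, 159, 207 and 167 after 3 days and 118, 145 and 152 after 5 days. Its largest step was between day 2 and day 3 (-1.28), and the fold change at day 5 was -2.35 (standard error 0.13, adjusted p = 9.51e-10 from limma, rescaled -1.13). COX7C, also a single-helix subunit, measured 1072, 1126 and 1151 TPM in the untreated libraries, 1307, 1161 and 1255 after 2 days, 1992, 1754 and 2237 after 3 days and 2742, 2696 and 2725 after 5 days. Its day 5 libraries made it the most abundant member, up from the fourth place in untreated cells, with a fold change of 1.29 (standard error 0.08, adjusted p = 3.86e-09 from limma, rescaled 2.51). COX7A2 rose too (0.72, rescaled 1.94), COX7B was at 0.38 without a call and was higher after rescaling (1.60), and COX6B1 fell (-1.71, rescaled -0.49). COX6C, the most abundant member in untreated cells, lay at 1703, 1748 and 1804 TPM there and at 1541, 1373 and 1369 at day 5 (-0.30, not called, and 0.93 after rescaling).

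**Figure D2:**
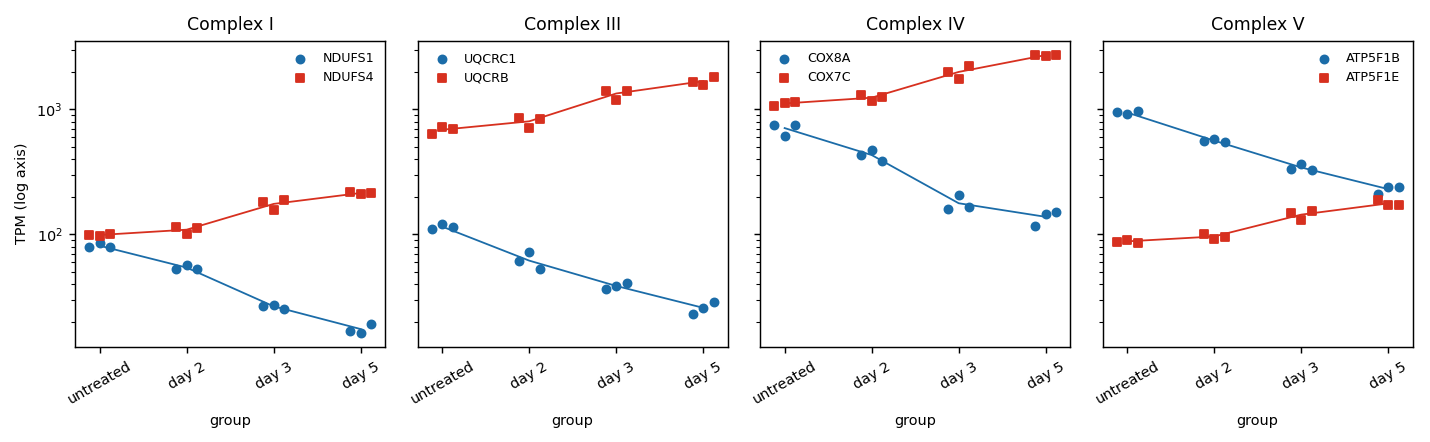
TPM (log axis) in each of the 12 libraries of the subunits with the lowest and highest change of complexes III and IV, and of NDUFS1 with NDUFS4 and ATP5F1B with ATP5F1E in complexes I and V, points being libraries and lines joining group means. NDUFS1 and NDUFS4 start side by side in untreated libraries and end at 17.5 and 215 TPM on average at day 5, and ATP5F1B and ATP5F1E approach each other from opposite sides.

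The catalytic F1 head of complex V turns on alternating ATP5F1A and ATP5F1B subunits around a stalk of ATP5F1C, ATP5F1D and ATP5F1E. ATP5F1A, the alpha subunit, measured 748, 743 and 744 TPM in the untreated libraries, 529.5, 556 and 516 after 2 days, 265, 307 and 251 after 3 days and 161, 179.5 and 209 after 5 days. ATP5F1B, the catalytic beta subunit, measured 954, 916 and 964 TPM in the untreated libraries, 557, 579 and 553 after 2 days, 335, 368 and 328 after 3 days and 211, 240.4 and 239.9 after 5 days. The pair fell by the same amount, 2.03 each at day 5, and both were lower after rescaling (-0.80 and -0.81). ATP5F1C, the gamma subunit, stayed at 301 TPM on average in untreated cells and 292 at day 5 (-0.05), and it was higher after rescaling (1.18). ATP5F1D, the delta subunit, fell (-1.69, rescaled -0.48). ATP5F1E, the epsilon subunit, had the largest rise of the complex and measured 87.2, 90.9 and 86.2 TPM in the untreated libraries, 101, 92.6 and 95.4 after 2 days, 148, 129.9 and 155 after 3 days and 187, 171 and 174 after 5 days. Its fold change at day 5 was 1.0 (standard error 0.08, adjusted p = 5.33e-08 from limma, rescaled 2.22). ATP5IF1, the inhibitor that binds F1 and blocks ATP hydrolysis, measured 196, 178 and 197 TPM in the untreated libraries, 223, 279 and 256 after 2 days, 284, 268 and 297 after 3 days and 301, 314 and 266 after 5 days. All 9 treated libraries lay above the 3 untreated ones, with a fold change of 0.57 at day 3 and 0.62 at day 5 (rescaled 1.43 and 1.84).

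The rotating ring of complex V is built from a single mature c subunit that is encoded by 3 genes with different leader sequences, ATP5MC1, ATP5MC2 and ATP5MC3. The last 75 codons were compared without gaps on the GENCODE release 29 transcripts. ATP5MC1 and ATP5MC2 were identical at 200 bases, and ATP5MC3 matched each of them at 183. The longest shared run was 17 bases between ATP5MC2 and either of the other genes. The last 90 coding bases before the stop codon are shown (hg38) to make plain how the 3 transcripts differ while encoding the ring protein, with capitals at the 25 positions where the 3 are not all the same.
ATP5MC1 (chr17:48895677-48895766, plus strand): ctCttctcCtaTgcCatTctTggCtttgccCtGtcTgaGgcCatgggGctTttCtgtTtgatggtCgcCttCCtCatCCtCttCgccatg
ATP5MC2 (chr12:53665317-53665406, minus strand): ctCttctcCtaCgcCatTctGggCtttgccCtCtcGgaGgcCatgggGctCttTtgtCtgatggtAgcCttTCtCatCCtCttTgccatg
ATP5MC3 (chr2:175178291-175178380, minus strand): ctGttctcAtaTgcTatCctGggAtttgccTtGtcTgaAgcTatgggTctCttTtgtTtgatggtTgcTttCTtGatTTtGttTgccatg
ATP5MC1 measured 308, 296 and 331 TPM in the untreated libraries, 202, 216 and 198 after 2 days, 123, 123 and 116 after 3 days and 76.3, 65.4 and 84.9 after 5 days. ATP5MC2 measured 472, 410.0 and 444 TPM in the untreated libraries, 391, 391 and 371 after 2 days, 262, 295 and 295 after 3 days and 202, 227 and 231 after 5 days. ATP5MC3 measured 469.7, 462 and 472 TPM in the untreated libraries, 241, 242 and 231 after 2 days, 166, 167 and 159 after 3 days and 112, 134 and 129 after 5 days. All 3 genes were lower at day 5, beside 69.8% of all features, with ATP5MC1 at -2.04, ATP5MC3 at -1.90 and ATP5MC2 at -1.01. After rescaling ATP5MC2 turned to 0.22 without a call while ATP5MC1 and ATP5MC3 stayed lower (-0.82 and -0.68), beside 26.9% of all features. The mix of the 3 changed with it. ATP5MC2 supplied 36.2 ± 1.41% of the summed TPM of the 3 genes in untreated cells (SD, n = 3 in these shares) and 52.3 ± 0.788% at day 5. ATP5MC3 had already dropped at day 2, from 38.3 ± 1.07% to 28.8 ± 0.215%. ATP5MC1 went from 25.5 ± 0.955% to 17.99 ± 2.32% by day 5, and library H11 had the lowest share, 15.3%.

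In the peripheral stalk, which holds the head still, ATP5PB, ATP5PD and ATP5PF were lower at day 5 (-1.21, -1.11 and -0.72) and lay at 0.02, 0.12 and 0.50 after rescaling. ATP5PO was at -0.38 and was not called, and was higher after rescaling (0.84). Among small membrane subunits, many of which join ATP synthase dimers, ATP5MF alone was called lower at day 5. It had been the third most abundant member, at 1335, 1283 and 1324 TPM, and stood at 316, 341 and 345 at day 5 (-1.97, rescaled -0.75). ATP5MPL (0.80, rescaled 2.03), ATP5ME (0.59, rescaled 1.81) and ATP5MD (0.53, rescaled 1.75) were higher, and ATP5MG was at -0.30, not called (rescaled 0.92). ATP5MGL, an intronless relative of ATP5MG, did not exceed 0.0642 TPM in any library.

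Ratios inside each library put these changes side by side without any scaling. No test was run on them. The summed TPM of the accessory subunits of complex I over that of the core was 6.33 ± 0.0377 in untreated cells (SD, n = 3 here and in every ratio and share that follows). It was 8.14 ± 0.304 after 2 days, 12.7 ± 0.921 after 3 days and 17.5 ± 0.641 after 5 days. The 4 groups did not overlap. NDUFS4 over NDUFS1 went from 1.22 ± 0.0719 to 12.3 ± 1.05 at day 5. UQCRB over UQCRC1 went from 5.94 ± 0.216 to 65.3 ± 5.51, and COX7C over COX8A from 1.59 ± 0.215 to 19.9 ± 2.91. These 3 pairs were formed from the extremes or opposite movers of the day 5 contrast and describe it only. Other subunits of the F1 head, and the inhibitor ATP5IF1 that binds it, did not all stay with ATP5F1B either. The ratios below likewise restate changes already given for their genes. ATP5F1C over ATP5F1B was 0.319 ± 0.00288 in untreated cells and 1.28 ± 0.195 at day 5, and ATP5IF1 over ATP5F1B was 0.202 ± 0.00580 and 1.28 ± 0.161. By contrast ATP5F1A over ATP5F1B was 0.789 ± 0.0205 in untreated cells, 0.948 ± 0.0137 at day 2 and 0.793 ± 0.0667 at day 5. SDHA over SDHB ranged from 0.631 to 0.646 in untreated libraries and from 0.632 to 0.960 at day 5, with the highest value, 0.960, in library H12. COX5B over COX5A was 0.585 ± 0.0692 and 1.24 ± 0.139 in untreated and day 5 cells.

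**Figure D3:**
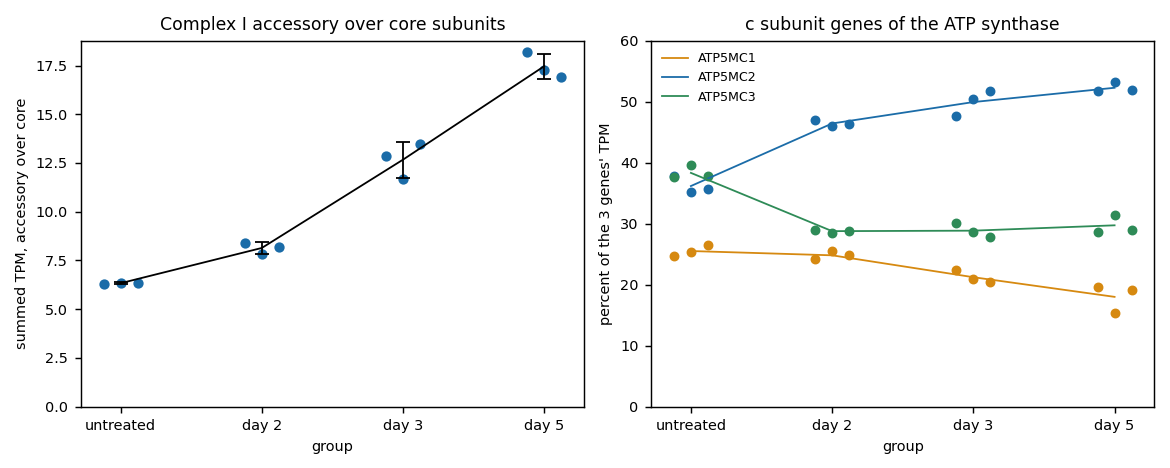
Left, summed TPM of the 32 accessory subunits of complex I (NDUFA4 and NDUFA4L2 included by symbol) over that of the 7 core subunits in each library, with group means and SD bars. Right, percent of the summed TPM of the 3 c subunit genes supplied by each gene, points being libraries and lines joining group means. The ratio climbs from about 6.33 to 17.5, and the mean of ATP5MC2 passes that of ATP5MC3 between untreated and day 2.

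Summed over all 82 genes the share of the RNA was lower in all treated groups, at a near constant level. Their sum was 2.90 ± 0.0643% of all TPM without NGI-1 (SD, n = 3 here and below), 2.32 ± 0.0405% after 2 days, 2.30 ± 0.0822% after 3 days and 2.31 ± 0.0223% after 5 days. All treated libraries lay below all untreated ones, and the treated groups overlapped. Complex I went from 0.935 ± 0.0288% to 0.656 ± 0.0103% at day 5, complex V from 0.883 ± 0.0103% to 0.607 ± 0.000883% and complex II from 0.0704 ± 0.000419% to 0.0254 ± 0.00272%. Complex IV was at 0.687 ± 0.0215% and 0.669 ± 0.00855%, and complex III was at 0.321 ± 0.0125% and 0.349 ± 0.00768%. On rescaled values the day 5 sum of all members was 1.87 times the untreated sum in place of 0.796 times, and complex II was still lower, at 0.842 times. The mitochondrially encoded subunits of the same complexes took 9.42 ± 0.699% in untreated cells and 13.1 ± 0.609% at day 5. None of their 13 genes was lower at day 5 and 5 were higher, beside 69.8% and 7.73% of all features. They ranged from MT-ATP6 (-0.12) to MT-CO1, the catalytic subunit of complex IV (1.15). All 13 were higher after rescaling, beside 27.5% of all features. The ratio of nuclear to mitochondrially encoded TPM went from 0.288 ± 0.0287 to 0.148 ± 0.00754 in complex I and from 0.238 ± 0.0165 to 0.128 ± 0.0124 in complex IV. In complex III it went from 0.818 ± 0.0739 to 0.520 ± 0.0579 at day 2 and 0.6003 ± 0.0336 at day 5, and in complex V from 0.312 ± 0.0448 to 0.214 ± 0.00681. In these 4 complexes no day 5 library overlapped the untreated range.

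**Figure D4:**
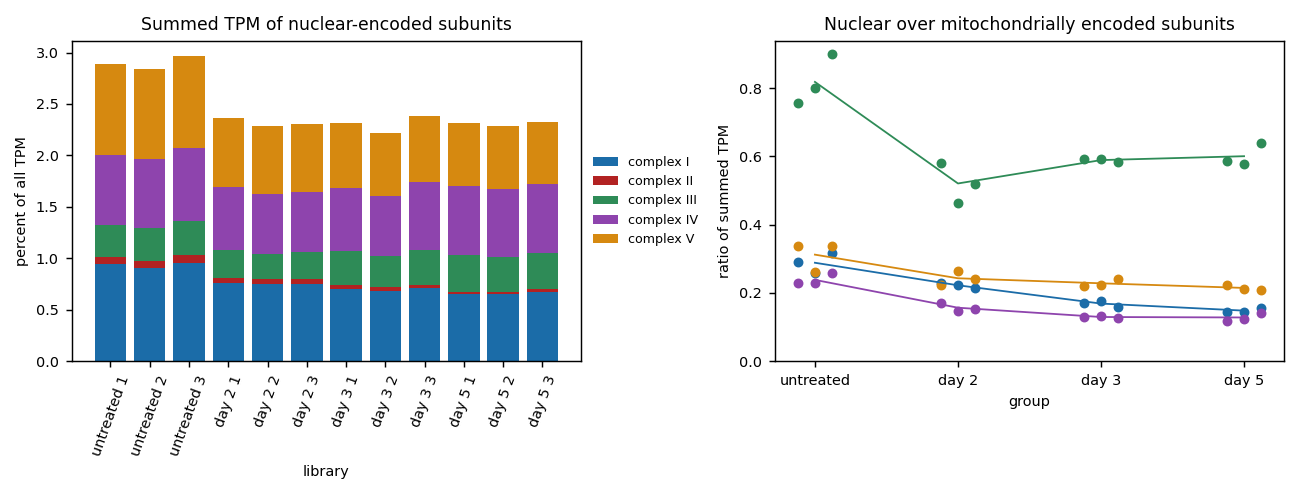
Left, stacked bars of the summed TPM of each complex's nuclear-encoded members as a percent of all TPM in each of the 12 libraries. Right, summed TPM of nuclear-encoded over mitochondrially encoded subunits of complexes I, III, IV and V (colours as in the bars), points being libraries and lines joining group means. The bars drop from 2.84% to 2.97% in untreated libraries to 2.22% to 2.38% in treated ones, and all 4 ratios end below where they began.

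Members that fell furthest had, as a group, longer coding sequences. Across the 80 tested members the log2 fold change at day 5 was negatively related to the log2 coding length of the GENCODE release 29 transcript (Pearson's r = -0.585, Spearman's rho = -0.573). The value was Pearson's r = -0.449, Spearman's rho = -0.454 at day 2 and Pearson's r = -0.562, Spearman's rho = -0.566 at day 3. Within complex I it was Pearson's r = -0.569, Spearman's rho = -0.582 over 39 members at day 5, and within complex V Pearson's r = -0.642, Spearman's rho = -0.624 over 18. Over 10425 tested features with a protein-coding transcript the same relation at day 5 was weaker (Pearson's r = -0.206, Spearman's rho = -0.203). With whole transcript length in place of coding length it was also weaker among the members (Pearson's r = -0.182, Spearman's rho = -0.168), and with the untreated level it was near 0 (Pearson's r = 0.0963, Spearman's rho = 0.114). These correlations are across genes measured in the same 12 libraries. Genes are not independent replicates, and no test is given. Of 20 members with a coding length over 600 bases, a length chosen after the values were seen, 18 were lower and 0 higher at day 5, a median of -1.84. The other 60 had 32 lower and 12 higher, a median of -0.68. Among all features 69.8% were lower and 7.73% higher. On rescaled values the longer members had 12 lower and 2 higher, and the shorter 7 lower and 30 higher, beside 26.9% and 27.5% of all features. Exceptions stood on both sides. ATP5F1C, with 891 coding bases, was at -0.05, and COX8A, with 207, had the lowest value of all.

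**Figure D5:**
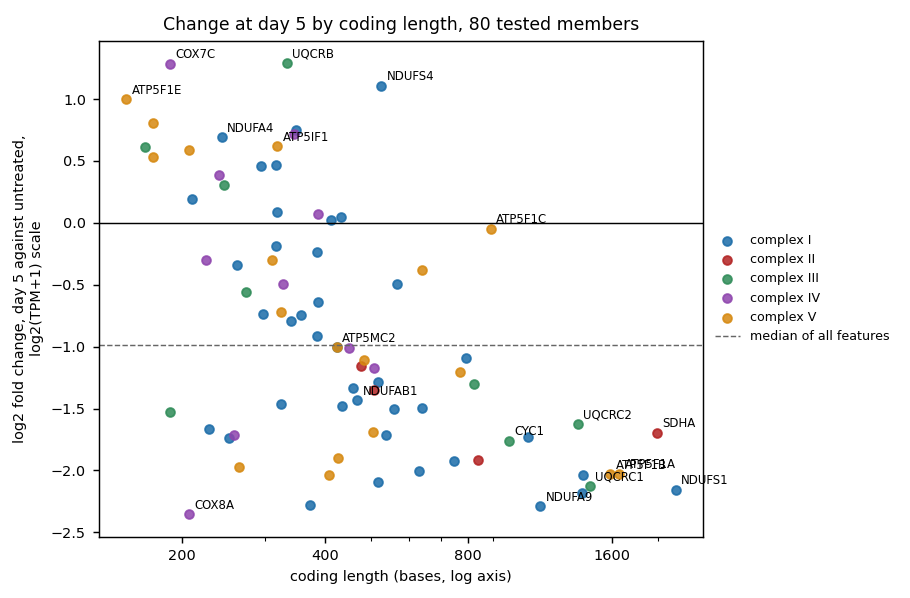
Log2 fold change at day 5 against untreated (vertical axis, log2(TPM+1) scale) against coding length in bases (log axis) for the 80 tested members, coloured by complex, with the dashed line at the median of all features (-0.99). All 12 risers lie at 525 coding bases or fewer, and COX8A, UQCR10 and ATP5MF are short members that fell.

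Promoters were searched for the letters that known regulators of respiratory genes prefer. NRF1 and the ETS factor GABPA are activators of many nuclear respiratory genes and YY1 binds near the start of several. RefSeq promoters (GRCh38.p14, 250 bases before to 50 after the start) were at hand for 66 of the 82 members, every start in the table being searched. They were searched on both strands for GCGCANGCG (NRF1), CCGGAAGT (ETS) and AAGATGGCG (YY1). None of these 3 contains another, and N stands for any base. The NRF1 letters were in a promoter of 23 of 66 members (34.8%), against 12.5% of 15843 protein-coding genes and 9.02% of all genes in the table. The ETS letters were in 12 (18.2%, against 6.97% and 4.95%) and the YY1 letters in 9 (13.6%, against 3.21% and 2.14%). Any of the 3 was present in 37 members (56.1%, against 20.5% and 14.6%). No test was run on these shares. Of 41 members lower at day 5, 25 (61%) held at least 1 of the 3, and so did 6 of 10 risers (60%) and 6 of 15 members without a call (40%). Windows of 60 bases around a match are shown for the lowest members of complexes I, III and IV and for 3 risers, 5′ to 3′ along the gene. The letters of 1 match are in capitals, and its position is counted from the first transcribed base as 0. The UQCRC1 window holds a further NRF1 match from -46, left in small letters.
NDUFA9 (chr12:4649010-4649069, plus strand, match from -79): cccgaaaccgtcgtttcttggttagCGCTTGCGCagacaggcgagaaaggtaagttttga
UQCRC1 (chr3:48609647-48609706, minus strand, match from -12): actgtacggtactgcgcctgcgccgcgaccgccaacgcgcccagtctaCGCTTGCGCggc
ATP5ME (chr4:674320-674379, minus strand, match from -78): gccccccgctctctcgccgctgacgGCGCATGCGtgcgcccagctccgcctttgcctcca
COX8A (chr11:63974560-63974619, plus strand, match from -19): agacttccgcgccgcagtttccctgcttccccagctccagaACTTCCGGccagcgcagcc
UQCR11 (chr19:1605546-1605605, minus strand, match from -117): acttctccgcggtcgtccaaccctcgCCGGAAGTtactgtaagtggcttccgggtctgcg
ATP5MD (chr10:103396602-103396661, minus strand, match from -160): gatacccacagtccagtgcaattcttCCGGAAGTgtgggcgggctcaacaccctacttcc
The NRF1 letters are shown in NDUFA9 (-2.29 at day 5), UQCRC1 (-2.12) and ATP5ME (0.59). The ETS letters are shown in COX8A (-2.35), UQCR11 (0.62) and ATP5MD (0.53). Outside these windows NDUFA9 and UQCRC1 also hold the YY1 letters, and UQCR11 the NRF1 letters. The windows were picked and do not compare fallers with risers. Over all members searched, NRF1 was in 16 of 41 lower members, 4 of 10 risers and 3 of 15 without a call. ETS was in 7, 2 and 3 of them, and YY1 in 8, 1 and 0. A match says that the letters are there and nothing on binding.

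Between treated days the main step was from day 2 to day 3. By the fitted contrast 31 members were lower at day 3 than at day 2 and 8 were higher, beside 55.5% lower and 3.22% higher among all features, with a median of -0.33 against -0.57. After rescaling 2 were lower (NDUFA9 and COX8A) and 33 higher, beside 13.6% and 14.3% of all features. From day 3 to day 5, 17 members were lower and 0 higher, beside 13.1% and 0.67% of all features. With no minimum fold 46 were lower and 11 higher at this step, beside 3163 and 209 of all 11939 features. Rescaling turned this step to 0 lower and 15 higher, beside 2.03% and 4.43% of all features. The count of 17 rested on single libraries, with 9 to 23 members when each library was left out, and was 10 without H8 and 9 without H10, and 18 without H8 and H12 together. ATP5MC1 (-0.68) and ATP5F1A (-0.58) were among those that fell at this last step, and COX7C (0.46) and ATP5MPL (0.43) had the highest values without a call. The contrasts against untreated share the same 3 untreated libraries.

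Other genes of mitochondrial respiration were counted by list. All 17 tested genes of the citric acid cycle were lower at day 5 and 10 of them after rescaling, with 0 higher, from DLAT, a subunit of pyruvate dehydrogenase (-2.71, rescaled -1.55), to SUCLA2, a subunit of succinyl-CoA synthetase (-0.82, rescaled 0.34). Their median was -1.97. The 13 genes of other electron entry and of metabolite carriers were all lower at day 5 (6 lower and 2 higher after rescaling), from VDAC1, the outer membrane channel, at 267 TPM in untreated cells and 35.9 at day 5 (-2.88, rescaled -1.67), to SLC25A4, an ADP/ATP carrier (-0.61, rescaled 0.54). Of 14 biogenesis regulators 12 were lower and 0 higher (4 and 2 after rescaling), from TWNK, the mitochondrial DNA helicase (-2.32, rescaled -1.23), to ESRRA, a nuclear receptor (-0.30, not called, and 0.88 after rescaling). Of 53 assembly factors 34 were lower and 7 higher at day 5 (6 and 22 after rescaling), from ACAD9 (-2.20, rescaled -1.10) to DMAC1 (1.69, rescaled 2.84), both complex I assembly factors. Of 10 isoforms and supercomplex factors outside the rule 5 were tested, and 2 were lower and 1 higher (0 and 3 after rescaling). CYCS, cytochrome c itself, went from 591 TPM in untreated cells to 197 at day 5 (-1.58, rescaled -0.35), and COX7B2, an isoform of COX7B, from 0.926 to 3.52 (1.24, rescaled 2.01). All these counts stand beside 69.8% lower and 7.73% higher among all tested features at day 5 on the deposited scale, and 26.9% and 27.5% after rescaling.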

How the data were processed

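Total RNA of 12 MM1S libraries, 3 untreated and 3 after each of 2, 3 and 5 days of NGI-1, had been sequenced by the authors. The deposited table gives log2 values, log2(TPM+1), per gene symbol. The submitters' processing notes name FastQC, Trimmomatic, STAR and Salmon and the build hg38, with versions and annotation not given in the sources used here. Groups were taken from the labels. The labels state over 60000000 paired reads per library, but the TPM values keep no counts, so the depth behind a value is unknown and no counting interval was given.

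The 11939 features that reached a TPM of 1 in 3 or more libraries were fitted in 1 model of the 4 groups with limma-trend (limma 3.58.1, R 4.3.3). The Benjamini-Hochberg adjustment ran over all of them. A call needed adjusted p under 0.05 together with a log2 fold change beyond 0.5 in either direction. For rescaling, 5433 features averaging 10 TPM or more were used. Summed TPM, ratios and correlations were computed in Python 3.11.15 with pandas 2.3.3. Lengths came from GENCODE release 29. Promoters are from RefSeq. The named members were the catalytic and redox subunits, the c subunit genes, ATP5IF1, NDUFA4, NDUFA4L2, UQCRH, UQCRHL and, per complex, the tested members with the lowest and the highest log2 fold change at day 5, and the same extremes of each list. Members that opposed, accompanied or stood between these were added after their values were seen. Alternatives were 3 other scalings, other filters, pseudocounts and fold thresholds, and leaving out each library. The members and lists were chosen with earlier results of these data known. Rows with a hyphen or a P and digits at the end of the symbol were left out of the counts. The values of 1 member, which is included in all counts and sums, are not reported here.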

Additional observations from a re-analysis of the deposited data

Results flagged for a closer look

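The treated days were compared directly because a change seen against untreated cells at successive days can differ between them, and the fitted day-against-day contrast tests that difference. Between day 2 and day 3, 31 of 80 members were lower and 8 were higher by limma's test, beside 55.5% and 3.22% of all features. Among the named members the falls at this step, as log2 fold changes, were COX8A (-1.28), NDUFA9 (-1.12), NDUFV1 (-1.05), NDUFS1 (-1.002), SDHA (-0.99), ATP5F1A (-0.96), ATP5MC1 (-0.76), CYC1 (-0.74) and ATP5F1B (-0.71). Smaller falls were seen in COX5A (-0.68), SDHB (-0.65), UQCRC1 (-0.65), NDUFA4L2 (-0.61), COX4I1 (-0.57) and ATP5MC3 (-0.54). The named risers of this step were UQCRB (0.74), NDUFS4 (0.68), COX7C (0.68), ATP5F1E (0.57) and NDUFA4 (0.53). After rescaling NDUFA9 (-0.50) and COX8A (-0.65) were still lower at this step, and these 5 risers were still higher.

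Between day 3 and day 5, 17 members were lower, beside 13.1% of all features. Among the 17 were ATP5MC1 (-0.68), ATP5F1A (-0.58), NDUFS1 (-0.58), SDHB (-0.58), ATP5F1B (-0.57), UQCRC1 (-0.57), SDHD (-0.53) and NDUFV1 (-0.50). None of the 80 was lower at this step after rescaling, beside 2.03% of all features. NDUFA4L2 lay between 0.977 and 3.21 TPM in all libraries. The part of library composition in these steps was not tested.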

How the results depend on the processing

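After rescaling the members lower and higher numbered 4 and 1 at day 2, 15 and 30 at day 3, 19 and 32 at day 5, 2 and 33 between day 2 and day 3, and 0 and 15 between day 3 and day 5. The shares of all features, in this order, were 11.4% and 12.9%, 24.2% and 23.9%, 26.9% and 27.5%, 13.6% and 14.3%, and 2.03% and 4.43%. The member medians became -0.15, 0.15 and 0.17 at day 2, day 3 and day 5. Of the members named by rule and called on either scale, COX4I1 (0.047), COX5A (0.22), ATP5MC2 (0.22), SDHD (0.059) and UQCRH (0.67) changed sign at day 5. Other members did so too, among them NDUFS3, ATP5PB, ATP5PD, ATP5PF, ATP5PO, ATP5MG and COX6C, and NDUFA4L2 without a call. With ribosomal protein and mitochondrially encoded features left out of the TPM total, 16 members were lower and 2 higher at day 2, 18 were higher at day 3, 23 were higher at day 5, 14 were lower and 21 higher between day 2 and day 3, and 1 was lower and 9 higher between day 3 and day 5. The member medians were -0.23, -0.24 and -0.34, and UQCRH turned to 0.16. Of 11842 features, 1898 were lower and 1470 higher at day 2, 1780 higher at day 3 and 1987 higher at day 5. Between day 2 and day 3, 4389 were lower and 933 higher, and between day 3 and day 5, 464 and 277. With the 20 most abundant features left out, 13 members were higher at day 3 and 14 between day 2 and day 3. Between day 3 and day 5, 7 were lower and 2 higher. The member medians were then -0.29, -0.46 and -0.73. Of 11919 features, 1327 were higher at day 3 and 619 between day 2 and day 3, and 1199 were lower and 122 higher between day 3 and day 5. The ratio of day 5 to untreated summed TPM under these 3 scalings, in this order, was 1.87, 1.31 and 0.996 for all members, 1.65, 1.15 and 0.878 for complex I, 0.842, 0.593 and 0.451 for complex II, 2.55, 1.79 and 1.36 for complex III, 2.29, 1.60 and 1.22 for complex IV, and 1.62, 1.13 and 0.861 for complex V. These 3 scalings act by their construction on every member of a library alike. A fold threshold of 1 left 0 members lower at day 2, 0 higher at day 3 and 4 higher at day 5. It left 6 lower and 0 higher between day 2 and day 3, and 0 lower between day 3 and day 5. Of all 11939 features, 620 were lower at day 2, 329 higher at day 3 and 408 higher at day 5. Between day 2 and day 3, 1984 were lower and 46 higher, and between day 3 and day 5, 61 were lower. With no fold minimum 55 members were lower and 1 higher at day 2, and 15 were higher at day 3. There were 20 higher between day 2 and day 3, and 46 lower and 11 higher between day 3 and day 5. Of all features, 3942 were lower and 1449 higher at day 2, and 1233 were higher at day 3. The counts were 718 higher between day 2 and day 3, and 3163 lower and 209 higher between day 3 and day 5. A TPM minimum of 5 gave a day 5 median of -1.09. With a pseudocount of 0.1, and also with no fold minimum, NDUFA4L2 was called lower at day 5 (-0.56 and -0.34). With each library left out, the count lower between day 3 and day 5 ranged from 9 to 23 and the count higher from 0 to 1, the 1 being without library H9. Lowest and highest medians were -0.39 and -0.35 at day 2, -0.73 and -0.68 at day 3, -1.11 and -1.03 at day 5. On rescaled values, an alternative chosen after seeing the data, the day 2 count lower ranged from 3 to 7, with 7 without library H2, and the count higher from 1 to 2. Leaving out H8 and H12 together, also chosen after seeing the data, gave 51 lower and 12 higher at day 5. No paired analysis was possible because the labels name the libraries H1 to H12 and the groups share no replicate number. Depth is unknown, so how far it limits scarce members such as NDUFA4L2 was not tested.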

Other observations

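Rows outside the rule carry sequence of some members. Of 5 symbols with a hyphen, 4 exceeded 1 TPM in a library. NDUFC2-KCTD14, a readthrough of NDUFC2, went from 24.2 TPM in untreated cells to 9.42 at day 5, and ATP5MF-PTCD1, a readthrough of ATP5MF, from 18.8 to 4.40. Of 111 rows whose symbol ends in P and digits, 2 exceeded 1 TPM, UQCRFS1P1 and NDUFV2P1. How reads were divided between these and the members was not tested.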
